A study of Homo sapiens with 2 samples.

Results

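The genes described here encode mucins and a mucus protein of the gut surface. MUC1, MUC4, MUC12, MUC13 and MUC17 encode membrane-bound mucins, MUC2, MUC5AC and MUC5B encode gel-forming mucins, and FCGBP encodes a large secreted protein of intestinal mucus. They were chosen by gene symbol, with earlier results of these data known. All 9 were found, each in 1 row, among the 36601 genes listed for both libraries. Their unique molecular identifiers (UMIs, 1 per captured transcript molecule) were compared between cytokine-treated and untreated organoids, and between epithelial and mesenchymal cells of each library.

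The cells came from colon organoids grown from 1383D6, a widely used human iPS cell line, and were profiled by droplet single-cell RNA sequencing with 3′ v3.1 reagents of 10x Genomics. The library named CNT was made from organoids without added cytokines, and the library named 3CK from organoids treated over 8 days with IL-1β, TNF-α and IFN-γ together. Both had the same earlier differentiation, which included EGF, forskolin, the MEK inhibitor PD98059 and the DNA methylation inhibitor 5-Aza-2'-Deoxycytidine, and all cells descend from this 1 line. Ulcerative colitis is the disease the series title names, and the comparison asks how the mucin genes stand after exposure to inflammatory cytokines. Each group is 1 library, so no test between groups was possible, each 95% interval covers counting error alone, and no difference has a replicate check.

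Membrane mucins are anchored in the apical membrane, where their heavily O-glycosylated ectodomains form the glycocalyx and their short cytoplasmic tails can take part in signalling. Gel-forming mucins are packed into granules of goblet and other mucous cells, and after release they cross-link into the mucus layer. MUC2 is the main gel-forming mucin of the colon, where FCGBP is bound in the same gel, whereas MUC5AC and MUC5B are typical of stomach and airway mucus. IFN-γ induces the interferon response genes, and TNF-α and IL-1β act largely through NF-kB.

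After filtering, 2487 CNT cells with 101831571 UMIs and 1398 3CK cells with 91860414 UMIs were kept, and no barcode occurred in both libraries. The median kept cell had 28911 UMIs in CNT and 62746 in 3CK. Epithelial cells, with at least 2 EPCAM UMIs per 10000, numbered 1660 in CNT and 1016 in 3CK. Mesenchymal cells, with at least 5 UMIs per 10000 of COL1A1, COL1A2 and COL3A1 together and under 1 of EPCAM, numbered 574 and 124, and 253 and 258 cells met neither rule. Of the epithelial cells, 497 in CNT and 49 in 3CK also reached the collagen level. The cells named colonic in the labels carried 7 of 9 colonocyte markers at 1 CPM or more (UMIs per 1000000 UMIs of the group of cells) in CNT and 6 of 9 in 3CK, summing to 129 and 53.6 CPM. CA2 made up 86.3 and 30.4 CPM of these sums. Small intestinal enterocyte markers summed to 4842 and 1644 CPM, with 7 of 7 at 1 CPM or more in CNT and 5 of 7 in 3CK. Hepatic markers were far more abundant, with all 6 at 1 CPM or more and sums of 72323 and 24771 CPM. The goblet markers summed to 1221 and 628 CPM, of which ZG16 made up 1014 and 589 CPM.

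MUC1, MUC4 and MUC13 were higher in 3CK. FCGBP was lower in summed UMIs, with 205 of its 247 CNT UMIs in 7 cells. The other members were close to their CNT level or too rare to place. Summed over all kept cells, 5 of the 9 members reached 1 CPM in either library. Of these, 3 were at least 2-fold higher in 3CK and 1 was at least 2-fold lower, where 6.96% and 11.3% of the 17523 genes at that level were called higher and lower. In epithelial cells 7 members reached 1 CPM, again with 3 higher and 1 lower, against 8.48% and 12.1% of 16809 genes. In mesenchymal cells 4 members reached it, with 2 higher and 0 lower, against 6.05% and 16.7% of 17353 genes. The 1 lower member, in all kept and in epithelial cells, was FCGBP. It passed 1 CPM only through CNT, where it was high, so its call is a description. The median log2 ratio of the members at that level was 1.16 in all kept cells, -0.19 in epithelial cells and 0.77 in mesenchymal cells, beside -0.05, 0.01 and -0.21 over all genes at that level.

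**Figure D1:**
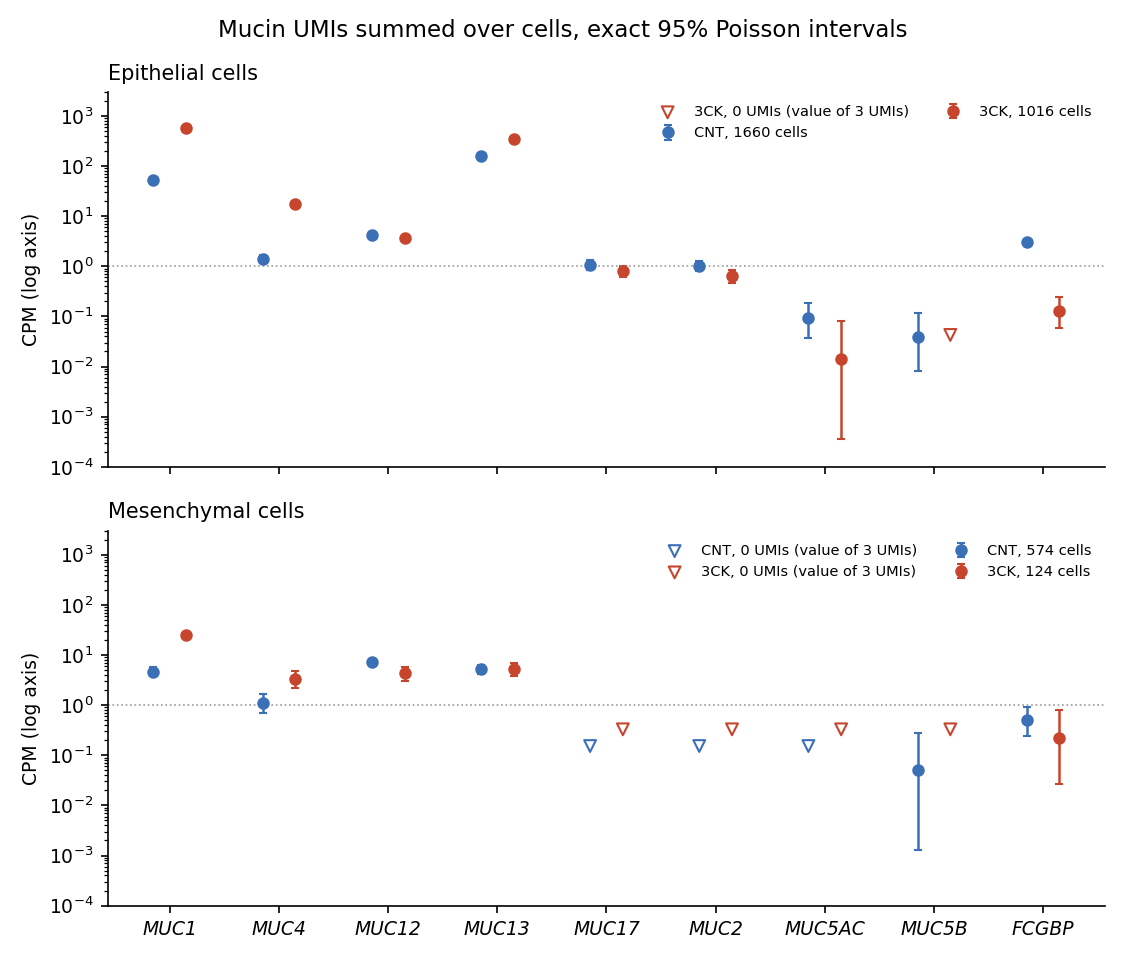
CPM of the 9 genes (log axis) in epithelial and mesenchymal cells of CNT and 3CK, from UMIs summed over the cells of 1 library each, with exact Poisson 95% intervals. Open triangles stand at the value of 3 UMIs where 0 UMIs were seen, and the dotted line marks 1 CPM. MUC1 was at 52.8 and 573 CPM in epithelial cells, and the 3CK point of FCGBP lies below its CNT point.

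MUC1 (ENSG00000185499, chromosome 1, 155185824 to 155192916, minus strand, GRCh38 in GENCODE) encodes a membrane mucin of most glandular epithelia. In all kept cells 4194 CNT UMIs and 42782 3CK UMIs were counted. The level was 41.2 CPM (39.9 to 42.5, an exact Poisson interval as for all levels) in CNT, and 466 CPM (461 to 470) in 3CK. The 3CK library was thus 11.3-fold higher, a log2 ratio of 3.50 (3.45 to 3.55). In epithelial cells MUC1 had 52.8 CPM (51.2 to 54.5) without cytokines and 573 CPM (567 to 578) with them, a log2 ratio of 3.44 (3.39 to 3.49). Of the 9 genes MUC13 had the most UMIs in CNT, and MUC1 had the most in 3CK. The counts are of 3′ tags, 1 per molecule, so gene length was not divided out of these levels.

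MUC4 (ENSG00000145113, chromosome 3, 195746765 to 195811973, minus strand), a very large membrane mucin that can bind the receptor ERBB2, gave 149 CNT UMIs and 1414 3CK UMIs. The CNT level of 1.46 CPM (1.24 to 1.72) compares with 15.4 CPM (14.6 to 16.2) in 3CK. This was 10.5-fold higher, a log2 ratio of 3.40 (3.15 to 3.65). In epithelial cells it stood at 1.42 and 17.2 CPM, a log2 ratio of 3.60 (3.31 to 3.90). The intervals of the MUC1 and MUC4 ratios in epithelial cells overlapped, although the MUC4 level was far below that of MUC1 in both libraries.

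MUC13 (ENSG00000173702, chromosome 3, 124905442 to 124953819, minus strand), a membrane mucin of the intestinal epithelium, gave 12395 CNT UMIs and 24942 3CK UMIs. The CNT level was 122 CPM (120 to 124) and the 3CK level 272 CPM (268 to 275), a 2.23-fold higher level. In epithelial cells it stood at 159 and 344 CPM, a log2 ratio of 1.11 (1.08 to 1.14). This ratio lay just past 2-fold, and its lowest value over the 13 alternative settings was 1.01. The MUC13 ratio was smaller than those of MUC1 and MUC4, with no overlap of the counting intervals.

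No motif searched was found in all 3 of the genes that were higher in 3CK, in the 250 bases before the 1 start used for each. RefSeq entries with the start sites were found for 7 of the 9 members (assembly GRCh38.p14), not for MUC5AC and MUC5B. MUC1 had 2 entries, of which only the first was searched. The windows of MUC1 (chr1:155192916-155193165), MUC4 (chr3:195811930-195812179) and MUC13 (chr3:124934752-124935001), all on the minus strand, are printed 5′ to 3′ and end at the base before the start, because these are the members whose levels were higher together. Capitals mark matches on either strand to the motifs named in the next paragraph. The MUC13 start used by RefSeq lies inside the span that GENCODE gives for the gene.
MUC1: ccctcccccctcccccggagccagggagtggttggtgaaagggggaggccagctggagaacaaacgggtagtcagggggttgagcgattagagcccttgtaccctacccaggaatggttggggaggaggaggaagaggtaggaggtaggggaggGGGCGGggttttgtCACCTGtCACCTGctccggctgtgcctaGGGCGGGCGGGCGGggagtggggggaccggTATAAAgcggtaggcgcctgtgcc
MUC4: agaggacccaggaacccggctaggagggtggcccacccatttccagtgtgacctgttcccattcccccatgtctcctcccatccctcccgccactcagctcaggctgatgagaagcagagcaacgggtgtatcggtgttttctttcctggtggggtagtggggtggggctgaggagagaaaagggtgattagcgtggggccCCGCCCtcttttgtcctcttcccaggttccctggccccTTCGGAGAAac
MUC13: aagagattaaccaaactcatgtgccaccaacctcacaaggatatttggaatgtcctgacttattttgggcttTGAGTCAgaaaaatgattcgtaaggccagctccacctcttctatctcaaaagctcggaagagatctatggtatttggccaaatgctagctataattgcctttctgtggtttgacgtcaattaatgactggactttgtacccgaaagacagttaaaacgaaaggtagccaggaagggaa

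The motifs searched, on both strands, were the TATA box (TATAAA), the SP1-type GC box (GGGCGG), a palindromic element (TTCNNNGAA), the IRF-type element, the AP-1 site (TGANTCA), an E-box (CACCTG), the CDX site (TTTATNG) and the NF-kB consensus. The MUC1 window held 1 TATAAA at positions -24 to -19 from the start, 4 GGGCGG, of which 3 overlap one another, and 2 CACCTG. The MUC4 window held 1 GGGCGG, on the minus strand of the gene, and 1 TTCNNNGAA at -11 to -3. The MUC13 window held 1 TGANTCA at -178 to -172, a motif also matched in the windows of MUC17 and MUC2. Neither the NF-kB consensus nor the IRF-type element matched in any of the 7 windows. Over all 35116 windows of this length, 10.7% held TATAAA, 42.6% GGGCGG, 6.57% TTCNNNGAA, 3.02% the IRF-type element, 6.57% TGANTCA, 17.5% CACCTG, 8.93% TTTATNG and 9.96% the NF-kB consensus. These matches describe letters only, and nothing was measured on binding.

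MUC12 and MUC17, membrane mucins of the intestinal brush border that neighbour each other on chromosome 7, did not reach a 2-fold difference between the libraries in summed UMIs. MUC12 (ENSG00000205277, 100969565 to 101018939, plus strand) gave 498 CNT UMIs and 364 3CK UMIs, or 4.89 and 3.96 CPM. In epithelial cells it stood at 4.27 CPM (3.82 to 4.76) and 3.75 CPM (3.31 to 4.23), a log2 ratio of -0.19 (-0.43 to 0.05). An antisense gene, MUC12-AS1, overlaps MUC12 with 210 CNT and 213 3CK UMIs. The sources used here do not give whether strand was used in the counting, and reads of the 2 genes may not have been told apart.

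MUC17 (ENSG00000169876, 101020072 to 101058859, plus strand) gave 83 CNT UMIs and 69 3CK UMIs. Epithelial cells of CNT held 1.06 CPM (0.844 to 1.32) and those of 3CK 0.799 CPM (0.603 to 1.04), with overlapping intervals and a log2 ratio of -0.41 (-0.93 to 0.10). The UMIs lay in 24 CNT cells and 25 3CK cells. The MUC17 ratio depended on a few cells and on the setting. When each cell was given equal weight it was 0.27 in epithelial cells and 1.55 over all kept cells. In epithelial cells with 30 to 300 TTR UMIs per 10000 it was -2.27 (-3.03 to -1.55), on 48 UMIs in 9 CNT cells and 25 UMIs in 12 3CK cells.

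**Figure D2:**
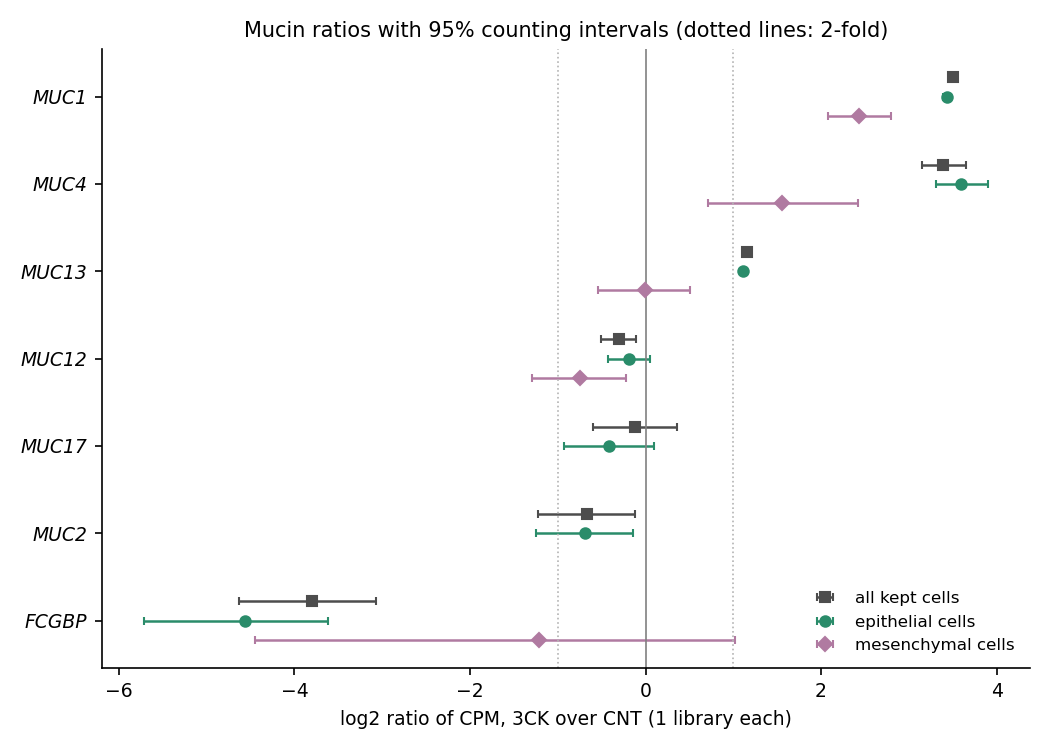
log2 ratio of 3CK to CNT (x axis) for the 7 genes with enough UMIs, in all kept, epithelial and mesenchymal cells, 1 library per group. Bars are 95% counting intervals and dotted lines mark 2-fold. MUC1 and MUC4 lie to the right in all 3 groups, MUC13 only in all kept and epithelial cells, and FCGBP lies to the left with a wide interval in mesenchymal cells.

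The gel-forming mucins were rare in both libraries. MUC2 (ENSG00000198788, chromosome 11, 1074875 to 1110511, plus strand) gave 79 CNT UMIs and 45 3CK UMIs, and all of them were in epithelial cells, at 1.04 CPM (0.821 to 1.29) and 0.642 CPM (0.468 to 0.859). The log2 ratio in epithelial cells was -0.69 (-1.25 to -0.15), under 2-fold. These UMIs came from 8 CNT cells and 7 3CK cells. In CNT the 4 cells with at least 3 MUC2 UMIs held 31, 16, 15 and 12, and in 3CK the 3 such cells held 26, 10 and 3. Without the 2 cells with the most MUC2 UMIs in each library the log2 ratio was -1.71, so the level of MUC2 rests on single cells.

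MUC5AC (ENSG00000215182, chromosome 11, 1157953 to 1201138, plus strand) had 7 CNT UMIs and 1 3CK UMI, and MUC5B (ENSG00000117983, chromosome 11, 1223066 to 1262172, plus strand) had 4 and 1. Neither reached 1 CPM, and a difference was not detectable at this depth. The interval of the MUC5AC level was 0.0276 to 0.142 CPM in CNT and 0.000276 to 0.0607 CPM in 3CK. The gastric marker TFF1, in contrast to MUC5AC, stood at 662 CPM in CNT cells and at 296 CPM after cytokines. Other gastric markers were lower, with CLDN18 at 32.4 and 29.8 CPM, GKN1 at 1.91 and 0.392 CPM, and GKN2 at 2 and 0 UMIs.

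The cells with several MUC2 UMIs were not alike in the other goblet markers. Of the 4 CNT cells, the first had 740 ZG16 and 102 REG4 UMIs but 1 of TFF3, and the fourth had 58 TFF3, 38 FCGBP and 3 ATOH1 UMIs. The second and the third had 11 and 2 ZG16 UMIs and 50 and 72 MUC1 UMIs. Summed, the 4 cells had AGR2, which encodes a disulfide isomerase needed for mucin folding, at 6915 CPM. The other 1656 CNT epithelial cells had it at 1845 CPM, and for MUC1 the values were 276 against 51.5 CPM. These higher levels were not shared by all 4 cells. From the first to the fourth they held 1745, 316, 1020 and 173 AGR2 UMIs and 3, 50, 72 and 5 MUC1 UMIs. Their depths were 123178, 147573, 58740 and 141106 UMIs. In 3CK the 3 cells held ATOH1, the transcription factor of the secretory lineage, at 48.0 CPM (14 UMIs in 2 cells) against 0.201 CPM in the other 1013 epithelial cells. In the same 3 cells MUC13 stood at 1715 against 338 CPM, while ZG16 stood at 158 against 763 CPM. The cells were picked by their MUC2 counts, so these values are a description.

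FCGBP (ENSG00000275395, chromosome 19, 39863323 to 39934626, minus strand) was the member with the largest lower ratio in 3CK. Its 247 CNT UMIs amounted to 2.43 CPM (2.13 to 2.75) and its 16 3CK UMIs to 0.174 CPM (0.0996 to 0.283), a log2 ratio of -3.80 (-4.63 to -3.07). In epithelial cells the counts were 232 and 9, a log2 ratio of -4.57 (-5.72 to -3.62), or 23.7-fold lower. Of the 247 CNT UMIs, 205 were in 7 cells and 94 in 1 cell. No 3CK cell had 3 or more FCGBP UMIs, 0 of 1398, which allows a share of up to 0.215%, while 7 of 2487 CNT cells did (0.281%, exact Clopper-Pearson interval 0.113 to 0.579). The share of such cells therefore did not differ detectably at this depth. Without the 2 cells with the most FCGBP UMIs the epithelial log2 ratio was -3.94, and with each cell given equal weight it was -3.29. No setting left out all 7 cells. After each epithelial cell was thinned to 5000 UMIs, FCGBP was seen in 0.565% of CNT and 0.129% of 3CK cells. That difference of -0.44 percentage points had an interval of -1.11 to 0.24.

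The 7 CNT cells rich in FCGBP were all epithelial and, summed, carried other secretory transcripts. TFF3, a trefoil peptide of goblet cells, stood there at 2484 CPM against 109 CPM in the other CNT epithelial cells. REG4 stood at 1600 against 116 CPM, ATOH1 at 52.0 against 0.304 CPM and MUC2 at 20.1 against 0.887 CPM. The 12 MUC2 UMIs were all in 1 of the 7 cells. Of the other goblet markers, SPINK4 had 0 UMIs there, SPDEF 2 and CLCA1 3, and ITLN1 stood at 8.39 against 7.77 CPM. MUC13 stood at 687 against 155 CPM and MUC1 at 305 against 50.8 CPM, whereas ZG16 was at 1470 against 1337 CPM. These cells were picked by FCGBP itself, so the values are a description of 7 cells of 1 library. Of the 231 FCGBP UMIs in CNT epithelial cells with at least 10000 UMIs, 170 lay in 5 of the 81 cells with at least 2 FABP2 and RBP2 UMIs per 10000, markers of small intestinal enterocytes, and the other 76 cells had 0. In 3CK 13 cells met that rule and 0 of them had an FCGBP UMI, too few cells to set beside the CNT share of 6.17%.

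Several members were higher in epithelial than in mesenchymal cells. In CNT 7 members reached 1 CPM in epithelial or mesenchymal cells, and 5 were at least 2-fold higher in epithelial cells, where 15.1% of 18033 genes were called so. Of these 5, only MUC1 and MUC13 reached 1 CPM in both groups. MUC2, MUC17 and FCGBP passed that level only through the epithelial group, where they were high, so their calls are a description. In 3CK 4 reached 1 CPM and 3 were higher in epithelial cells, where 16.8% of 17177 genes were. MUC13 was 30.6-fold higher in epithelial than mesenchymal cells in CNT and 66.7-fold higher in 3CK. MUC1 was 11.3-fold higher in CNT and 22.7-fold higher in 3CK. MUC2 and MUC17 had 0 UMIs in mesenchymal cells of both libraries. With that 0 set to a floor of 3 UMIs, they were 6.79-fold and 6.96-fold higher in CNT epithelial cells. The lower limits of the counting intervals were 2.43 and 2.47 in log2. In 3CK, where both were under 1 CPM, the same floor gave 1.95-fold and 2.43-fold. The MUC2 UMIs lay in 8 of 1660 CNT epithelial cells, so 0 in 574 mesenchymal cells sets no firm limit. FCGBP was 5.98-fold higher in CNT epithelial cells, on 232 against 10 UMIs. Without the 2 cells with the most UMIs of each member, MUC2 and MUC17 were under 1 CPM and the CNT count held 3 members, while the FCGBP log2 ratio was 2.10. With each cell given equal weight the MUC13 log2 ratio in CNT was 1.47 in place of 4.94. Genes at least 2-fold lower in epithelial cells, of which 0 were members in either library, made up 26.1% in CNT and 19.0% in 3CK.

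MUC12 and MUC4 did not follow this pattern. MUC12 stood at 4.27 CPM in epithelial and 7.18 CPM (6.04 to 8.46) in mesenchymal cells of CNT, and at 3.75 and 4.28 CPM in 3CK, where the intervals overlapped. MUC4 stood at 1.42 and 1.12 CPM in CNT, a log2 ratio of 0.34 (-0.33 to 1.07), whereas the 3CK levels of 17.2 and 3.29 CPM gave a log2 ratio of 2.38 (1.86 to 2.96). The counting intervals of these MUC4 ratios did not overlap, but the CNT ratio depended on the rule for mesenchymal cells. It was 1.86 when at least 20 collagen UMIs per 10000 were asked for, and 1.52 with each cell given equal weight.

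Mesenchymal cells also carried more MUC1 in 3CK. The 92 CNT UMIs of MUC1 there gave 4.68 CPM (3.77 to 5.74) and the 230 3CK UMIs 25.2 CPM (22.1 to 28.7), a log2 ratio of 2.43 (2.08 to 2.79). With each cell given equal weight that ratio was 3.96. MUC4 stood at 1.12 and 3.29 CPM, a log2 ratio of 1.56 (0.71 to 2.42), and MUC13 at 5.19 and 5.16 CPM. Free RNA from lysed epithelial cells can enter any droplet, so the mesenchymal level was set against the epithelial level for other epithelial genes. For TTR, APOA1, APOA2, FABP1, ZG16, AGR2 and CDH17 the mesenchymal CPM was between 1.69% and 3.99% of the epithelial CPM in CNT, and between 0.935% and 2.44% in 3CK. MUC13 lay within these ranges, at 3.26% (2.66 to 3.97) and 1.50% (1.10 to 2.00). MUC1 stood at 8.86% (7.13 to 10.9) and 4.40% (3.85 to 5.01), above these 7 genes. The comparison depends on the genes chosen, because MUC3A stood at 4.30% and 10.8% and MUC20 at 21.8% and 8.68%, on 5 to 42 mesenchymal UMIs. In 3CK the MUC3A interval of 5.71 to 18.5 lay above that of MUC1, while the MUC20 interval of 2.80 to 20.4 held the MUC1 value. In CNT the MUC20 interval of 15.6 to 29.7 lay above that of MUC1, and the MUC3A interval of 1.96 to 8.20 overlapped it. MUC4 stood at 79.0% and 19.1% and MUC12 at 168% and 114%. What part of the mesenchymal MUC1 UMIs came from free RNA was not tested.

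The difference in MUC1 spread over most epithelial cells. In epithelial cells with at least 10000 UMIs (1013 in CNT, 730 in 3CK), the median cell had 0 MUC1 UMIs per 10000 in CNT and 4.09 in 3CK. MUC1 was at 0 in 56.6% of these CNT cells and in 3.70% of the 3CK cells. The 90th percentile was 1.11 UMIs per 10000 in CNT, below the 25th percentile of 1.40 in 3CK. For MUC13 the median was 0.309 in CNT and 2.01 in 3CK, with 32.9% and 7.67% of cells at 0. MUC4 was at 0 in 94.3% of the CNT cells and 51.0% of the 3CK cells, and its median was 0 in both. For MUC12 the 90th percentiles were 0.130 and 0.125, with most cells of both libraries at 0.

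**Figure D3:**
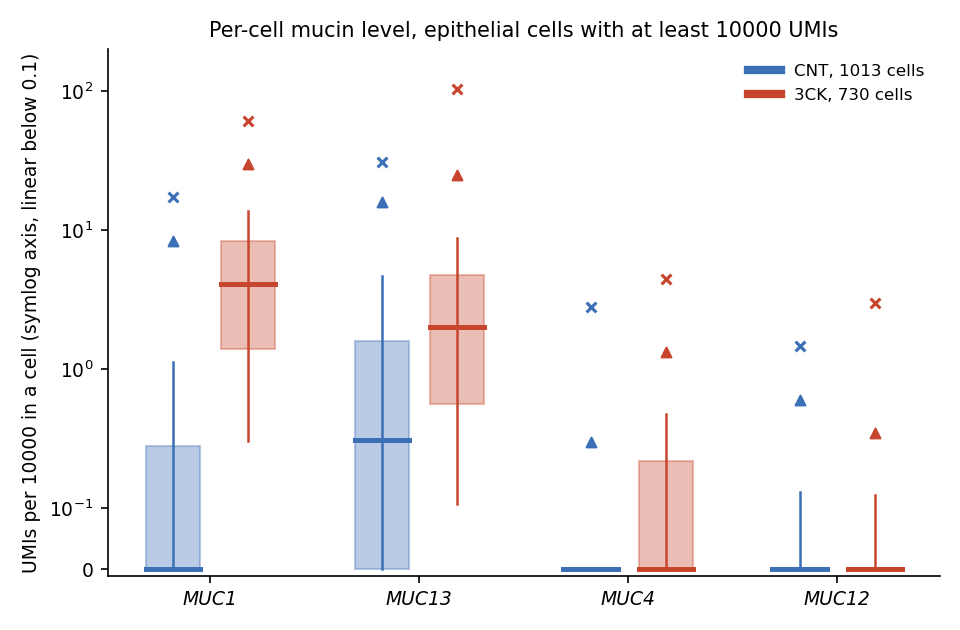
Level per cell (UMIs per 10000, symlog axis) of 4 membrane mucins in epithelial cells with at least 10000 UMIs. Thick lines are medians, boxes the middle 50%, thin lines the 10th to 90th percentiles, triangles the 99th percentile and crosses the highest cell. The MUC1 median was 0 in CNT and 4.09 in 3CK, and the MUC12 90th percentiles were 0.130 and 0.125.

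Because the 3CK cells were deeper, shares of cells were also taken after thinning each cell to 5000 UMIs, and 598 CNT and 240 3CK epithelial cells were too shallow to enter. MUC1 was then seen in 112 of 1062 CNT cells (10.5%, Clopper-Pearson interval 8.76 to 12.6) and 538 of 776 3CK cells (69.3%, 66.0 to 72.6), a difference of 58.8 percentage points (Newcombe interval 54.9 to 62.4). Unthinned, the shares were 28.6% and 80.0%. MUC13 was seen in 29.9% and 59.8%, and MUC4 in 0.471% (5 cells) and 7.99% (62 cells). In mesenchymal cells thinned in the same way the MUC1 shares were 1.88% (6 of 320) and 8.41% (9 of 107), and those of MUC13 were 2.19% and 0.935%. Unthinned, MUC1 was seen in 10.1% and 57.3% of the mesenchymal cells. The median depths of the unthinned cells were 37785 and 72198 UMIs in epithelial cells and 23450.5 and 65363 in mesenchymal cells. MUC12 was seen in 1.69% and 1.93% of epithelial cells, and the difference, with an interval of -0.99 to 1.62 points, was not detectable at this depth.

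MUC1 UMIs were also spread over more cells in 3CK. The fewest cells that together held 50% of the MUC1 UMIs numbered 30 of 2487 in CNT and 132 of 1398 in 3CK. For MUC4 the numbers were 19 and 84, and for MUC13 they were 70 and 105. Cells with any UMI numbered 555 and 1041 for MUC1, 88 and 457 for MUC4, and 899 and 943 for MUC13. These cells were not thinned and were deeper in 3CK, so concentration was not compared at equal depth. In thinned epithelial cells MUC1 and MUC13 were seen together in 53 of 1062 CNT cells (4.99%) and 358 of 776 3CK cells (46.1%). The product of the shares of each gene alone was 3.16% in CNT and 41.5% in 3CK, so most of this difference restates the higher share of each gene.

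Within the epithelium the mucin levels varied with the hepatic transcript TTR, and the pattern differed by member and library. Deep epithelial cells were divided by TTR UMIs per 10000 into high (at least 300), middle (30 to 300) and low (under 30) ranges, with 696, 257 and 60 cells in CNT and 151, 423 and 156 in 3CK. In CNT MUC1 stood at 34.4 CPM in the high range, 90.3 CPM in the middle and 145 CPM in the low range. In 3CK the same ranges held 460, 620 and 563 CPM. The MUC1 fold between libraries was therefore 13.4 in the high, 6.86 in the middle and 3.88 in the low range.

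MUC4 showed the same order in CNT, at 0.554, 2.79 and 6.64 CPM, and stood at 10.2, 19.2 and 18.6 CPM in 3CK. MUC13 was instead lowest in the TTR-low range of CNT, at 160, 184 and 58.0 CPM, and was nearly level in 3CK at 351, 338 and 351 CPM. Its fold was 2.19 in the high, 1.84 in the middle and 6.05 in the low range. MUC13 was thus under 2-fold in the middle range, which held most 3CK cells. The shift of the cells between TTR ranges is part of the comparison over all epithelial cells, and within each range MUC1, MUC4 and MUC13 were higher in 3CK.

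**Figure D4:**
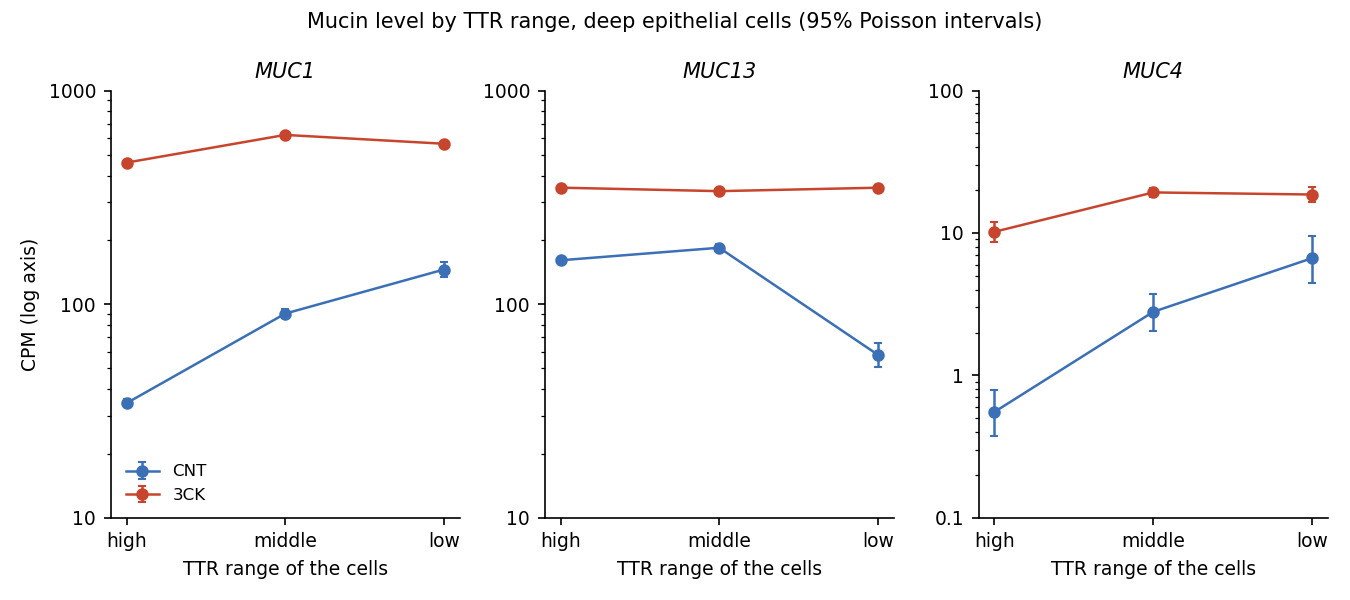
CPM (log axis) of MUC1, MUC13 and MUC4 in epithelial cells with at least 10000 UMIs, divided by TTR level, with Poisson 95% intervals. The CNT line climbs toward the TTR-low range for MUC1 and MUC4 and drops to 58.0 CPM for MUC13, while the 3CK lines are flatter.

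The cells with FABP2 and RBP2 were the richest in MUC13 among the ranges named here. MUC13 stood at 768 CPM in the 81 CNT cells and 2072 CPM in the 13 3CK cells, and MUC17, with UMIs in 13 and 6 of these cells, at 7.69 and 27.6 CPM. MUC1 stood at 80.2 and 1054 CPM in the same cells. In cycling epithelial cells (20 and 23 cells) MUC1 was at 14.4 and 334 CPM and MUC13 at 34.4 and 179 CPM, below the levels of non-cycling cells in each library. In cells with at least 5 ZG16 UMIs per 10000, MUC1 was at 34.5 CPM in 463 CNT cells and 519 CPM in 247 3CK cells. These small groups share their library, and their intervals do not cover differences between cultures.

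Among the treated epithelial cells, MUC1, MUC4 and MUC13 stood in different relations to the interferon and NF-kB response genes. The 730 deep 3CK epithelial cells were ranked by the summed UMIs of 15 interferon response genes and, separately, of 15 NF-kB response genes, and divided into quartiles of 182 or 183 cells. MUC1 stood at 345, 493, 606 and 802 CPM from the lowest to the highest interferon quartile, and at 336, 475, 673 and 793 CPM over the NF-kB quartiles. The highest quartile held 2.33-fold more MUC1 than the lowest for interferon genes and 2.36-fold more for NF-kB genes.

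MUC4 followed the interferon genes more closely than the NF-kB genes. It stood at 9.59, 11.9, 17.1 and 28.2 CPM over the interferon quartiles, and at 12.7, 19.2, 19.6 and 17.0 CPM over the NF-kB quartiles. The fold of the highest over the lowest quartile was 2.94 for interferon genes, with a log2 interval of 1.29 to 1.83, and 1.34 for NF-kB genes, with a log2 interval of 0.16 to 0.69. MUC13 stood at 256, 385, 358 and 364 CPM over the interferon quartiles and at 242, 320, 358 and 444 CPM over the NF-kB quartiles, a 1.42-fold and a 1.84-fold difference between the ends. MUC12 was between 3.44 and 4.44 CPM over the interferon quartiles, with overlapping intervals.

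**Figure D5:**
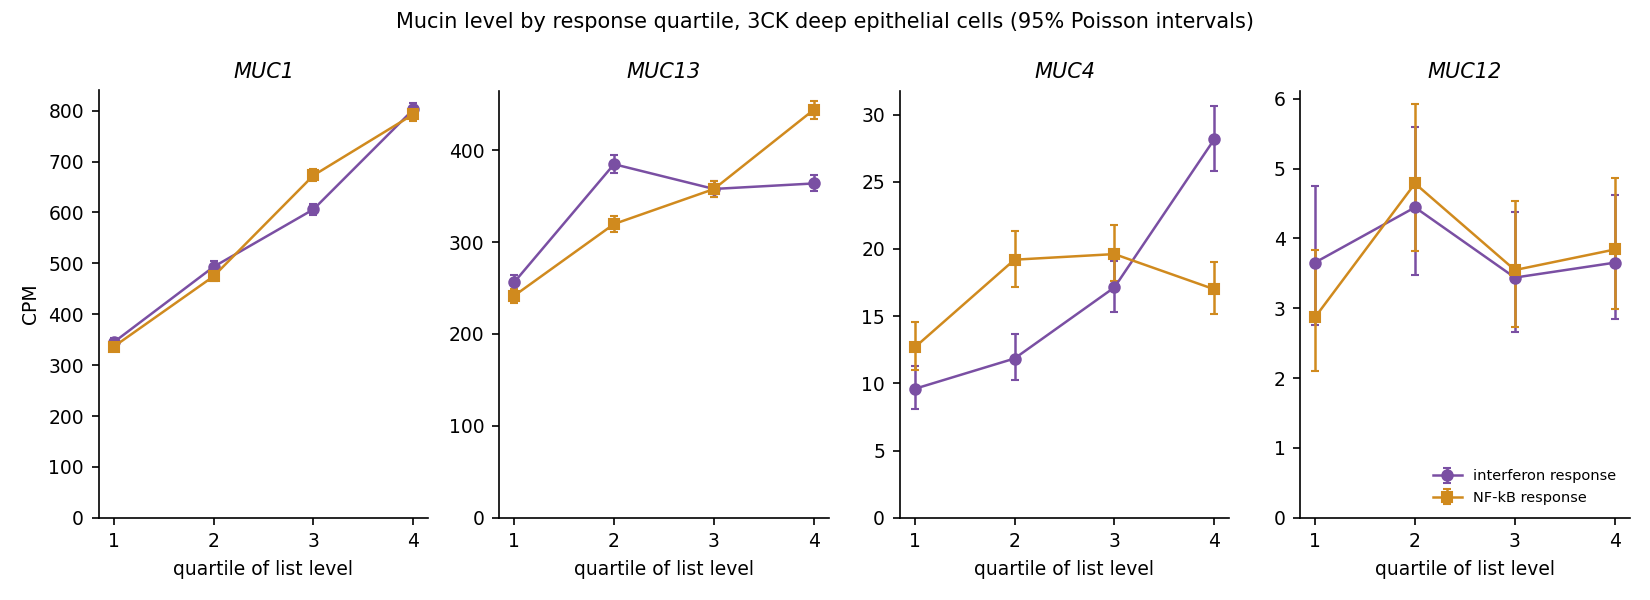
CPM of 4 membrane mucins in 3CK epithelial cells with at least 10000 UMIs, by quartile of the summed interferon or NF-kB response genes (x axis, 1 lowest to 4 highest), with Poisson 95% intervals and axes from 0. MUC1 climbs with both lists to 802 and 793 CPM, MUC4 with the interferon genes to 28.2 CPM and MUC13 with the NF-kB genes to 444 CPM.

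The 2 lists, TTR and depth moved together over these quartiles. From the lowest to the highest interferon quartile the median TTR level went from 248 to 76.2 UMIs per 10000, the median NF-kB level from 17.9 to 34.9 and the median depth from 84593 to 102614 UMIs. Within the cells of the middle TTR range the order was kept, with MUC1 at 401, 500, 613 and 835 CPM and MUC4 at 7.82, 13.1, 19.0 and 30.3 CPM over the interferon quartiles. MUC13 in that range stood at 176, 331, 352 and 455 CPM over the NF-kB quartiles.

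Splitting the 3CK cells at the median of both lists separated the members further. Where both lists were at the lower level (227 cells) MUC1 stood at 319 CPM and MUC4 at 9.89 CPM. With only the interferon genes at the upper level (138 cells) they stood at 527 and 24.4 CPM, and with only the NF-kB genes at the upper level (138 cells) at 580 and 12.1 CPM. With both at the upper level (227 cells) they stood at 811 and 21.5 CPM. MUC13 stood at 279, 285, 389 and 407 CPM in the same order. These splits were chosen after the quartile values were seen, all cells are from 1 library, and no test was made.

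The genes whose levels were most like those of each member across deep epithelial cells were named by the Pearson correlation r of log-scaled UMIs per 10000. The cells of a correlation share 1 library and the counts of many are 0, so r is a description, over 1013 CNT cells or 730 3CK cells. For MUC13 the nearest genes in CNT were TSPAN8 (r = 0.68), a tetraspanin of digestive epithelia, TMEM45B, CDHR5, CEACAM6 and PHGR1. In 3CK they were CEACAM6 (r = 0.65), a cell adhesion molecule, TSPAN8, CEACAM1, STOM and TMPRSS2. For MUC1 they were GPRC5A (r = 0.39), PLAUR, LRP10, ITGB4 and CD9 in CNT, and TMBIM1 (r = 0.47), LRP10, MUC13, NECTIN2 and ANXA11 in 3CK.

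For MUC4 in 3CK the nearest genes were CMPK2 (r = 0.30), GPRC5A, NT5C3A, USP18 and BATF2, of which CMPK2, USP18 and BATF2 are known interferon-induced genes. MUC1 and MUC13 correlated at r = 0.26 in CNT and 0.42 in 3CK, MUC1 and MUC4 at 0.24 in 3CK, and MUC13 and MUC4 at 0.14. The correlation with log depth was at most 0.09 in size for MUC1 and MUC13 in both libraries and for MUC4 in 3CK.

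The lists of related genes are described in epithelial cells, where 8.48% of all genes were called higher and 12.1% lower in 3CK, and in short lists the counts near these shares are no result about the list. Of 15 other mucin family genes 8 reached 1 CPM, of which 0 were at least 2-fold higher in 3CK and 3 were lower, with a median log2 ratio of -0.64 against 0.01 over all genes. MUC3A, a membrane mucin next to MUC12, stood at 10.7 and 13.2 CPM, a log2 ratio of 0.31 (0.17 to 0.45). MUC20 stood at 9.82 and 6.32 CPM and MUC19 at 2.30 and 0.770 CPM, log2 ratios of -0.64 and -1.58. CD164, a sialomucin of many cell types, was level at 178 and 167 CPM, and MUCL3 had the smallest ratio, at 4.75 and 0.471 CPM. MUCL1 had the largest, 0.49, with an interval of -0.02 to 1.01. OVGP1, an oviductal mucin-like protein, stood at 4.77 and 1.87 CPM, and MCAM, an adhesion molecule also listed as a mucin, at 14.6 and 9.37 CPM. Mucin genes carry long repeats, and how reads that fit more than 1 of them were counted is not given in the sources used here.

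Of 36 enzymes that build mucin O-glycans, 34 reached 1 CPM in epithelial cells, with 4 higher, 4 lower and a median log2 ratio of 0.00, and both counts were near the shares of 8.48% and 12.1% over all genes. The 4 higher were the fucosyltransferases FUT2 (11.8 and 27.7 CPM) and FUT3 (1.12 and 4.18 CPM), the branching enzyme GCNT3 (20.0 and 52.5 CPM) and B4GALNT3 (10.9 and 28.8 CPM). The 4 lower were GALNT5 (15.3 and 4.71 CPM), GALNT14 (1.54 and 0.585 CPM), GCNT1 (35.8 and 14.1 CPM) and the sulfotransferase CHST5 (1.46 and 0.171 CPM). B4GALT1, the most abundant of the list, stood at 160 and 236 CPM.

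Of 28 genes of mucin folding, packaging and release 24 reached 1 CPM, with 4 higher, 4 lower and a median log2 ratio of 0.02. Beside all-gene shares of 8.48% higher and 12.1% lower, nothing is read from the counts of this list or of the next lists, of 20 transcription factors and 16 partners. AGR2 stood at 1877 and 1450 CPM, the transglutaminase TGM2 at 21.9 and 309 CPM, and the chloride and bicarbonate exchanger SLC26A3 at 6.31 and 0.756 CPM. Of the goblet and mucosal transcription factors 16 reached 1 CPM, with 3 higher and 1 lower and a median of -0.16. EHF stood at 3.95 and 24.0 CPM, FOXA1 at 61.0 and 19.3 CPM and HES1 at 78.7 and 70.7 CPM. Of the binding partners and proteases of membrane mucins all 16 reached 1 CPM, with 0 higher and 3 lower and a median of -0.09. LGALS3, a lectin that binds mucin glycans, stood at 2289 and 1808 CPM, EGFR at 155 and 268 CPM and the microvillar motor gene MYO1A at 6.38 and 0.813 CPM.

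The response lists themselves were higher in treated epithelial cells. All 15 interferon response genes were at least 2-fold higher, with a median log2 ratio of 6.91, and CXCL10, a chemokine gene, had the largest ratio (0.315 and 1785 CPM). Of the NF-kB response genes 13 of 15 were higher, with a median of 3.30, from NFKB2 (21.8 and 35.7 CPM) to ICAM1 (16.3 and 800 CPM), and SOD2 stood at 58.7 and 791 CPM. The log2 ratios of MUC1 and MUC4 in epithelial cells, 3.44 and 3.60, lay below the interferon median and just above the NF-kB median. The cycling genes were within 2-fold, with a median log2 ratio of 0.34 over 6 genes, TPX2 having the largest (8.05 and 15.2 CPM) and BIRC5 the smallest (7.72 and 7.93 CPM) ratio, and TOP2A standing at 10.2 and 11.3 CPM.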

How the data were processed

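The deposited files hold raw UMI counts of each gene in each barcode. Their headers name Cell Ranger 7.1.0 as the program the authors used, with the build GRCh38 per the submitters' processing notes. The annotation release is not given in the sources used here. About 8300 cells were loaded per library, per the labels' protocols.

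Barcodes with at least 500 genes and at most 20% mitochondrial UMIs were kept, and the highest doublet scores (Scrublet in scanpy 1.11.5) were removed at 0.8% per 1000 barcodes, 52 in CNT and 16 in 3CK. UMIs were summed over cells and scaled to CPM. A gene was called higher or lower at a log2 ratio of 1 or more in size and at least 1 CPM in either group, and a group at 0 was set to 3 UMIs. Sums carry exact Poisson intervals, ratios intervals from the exact binomial share of both counts, and shares Clopper-Pearson intervals. All intervals cover counting error only. At the depths of the libraries, 3 UMIs correspond to 0.0295 CPM in CNT and 0.0327 CPM in 3CK. With 1 library per group no model or test was fitted. The ratio step was tested on simulated counts.

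The 9 members and the gene lists were chosen with earlier results of these data known. Named genes are all members, every other mucin family gene at 1 CPM, of each list the most abundant gene and those with the largest and smallest ratio, and the 5 genes nearest to each member by correlation, and 1 gene that this rule names is not reported here. The higher and lower glycosylation enzymes, the markers, and the genes of MUC2- and FCGBP-bearing cells were chosen with their values in view, or serve as checks. Gene spans are from GENCODE v44, and promoter windows from RefSeq (GRCh38.p14). Python 3.11.15 with numpy 2.4.6, scipy 1.17.1 and pandas 2.3.3 was used.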

Additional observations from a re-analysis of the deposited data

Results flagged for a closer look

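Barcodes that the filters removed were in no comparison, and 3 members stood higher in those of 3CK than in those of CNT, beyond their counting intervals. In the 243 removed 3CK barcodes MUC1 was at 410 CPM, with a Poisson interval of 388 to 434. In the 770 removed CNT barcodes it was at 17.2 CPM (13.1 to 22.2). MUC13 was at 211 against 41.9 CPM, and MUC4 at 15.9 against 0.574 CPM. The removed barcodes include those with few genes, a high mitochondrial share or a high doublet score. MUC2 had 0 UMIs in the removed barcodes of both libraries.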

How the results depend on the processing

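Besides the reported values, 13 planned settings and 2 chosen after seeing the data (MALAT1-rich barcodes left out, and the 2 cells with the most UMIs of a member left out) were run. No log2 ratio of MUC1, MUC4 or MUC13 between libraries changed sign in all kept or epithelial cells: in epithelial cells MUC1 lay between 3.33 and 3.55, MUC4 between 3.49 and 3.89, MUC13 between 1.01 and 1.28 and FCGBP between -4.74 and -3.29. TMM factors shifted every log2 ratio of 3CK over CNT by 0.09 in all kept, 0.03 in epithelial and 0.18 in mesenchymal cells, and that of epithelial over mesenchymal cells by 0.39 in CNT and 0.18 in 3CK. The minimum level moved the counts. At 10 CPM the members lower in 3CK numbered 0 in all kept and 0 in epithelial cells, those higher in mesenchymal cells 1, and those higher in CNT epithelial than mesenchymal cells 2. With no minimum, 3 members were lower in all kept, 2 in epithelial and 1 in mesenchymal cells. Without the 2 top cells, 3 members were higher in CNT epithelial than mesenchymal cells. Thinning to 10000 UMIs gave share differences of 64.4 points for MUC1 and 13.3 points for MUC4. Giving each cell equal weight turned MUC17 over all kept cells to 1.55 and MUC12 in mesenchymal cells to 0.17, and lowered the MUC13 ratio of epithelial over mesenchymal CNT cells to 1.47; the cause was not tested. No paired analysis was possible because each group is 1 library, and for the same reason no replicate could be left out. Depth limits MUC5AC, MUC5B, MUC2 and MUC17, which rest on few UMIs.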

Other observations

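Barcodes rich in MALAT1, with at least 300 UMIs per 10000, were compared with the other kept barcodes of at least 10000 UMIs. In 3CK the 154 MALAT1-rich barcodes held MUC4 at 29.7 CPM against 14.0 CPM in the other 841, with UMIs in 51 and 394 of them. The median depth was 46938 UMIs in the MALAT1-rich and 95713 in the other barcodes. MUC1 stood at 414 against 473 CPM and MUC13 at 277 against 270 CPM there. In CNT the 158 MALAT1-rich barcodes held 4 MUC4 UMIs, 0.645 CPM, against 1.51 CPM in the other 1300. The 253 CNT and 258 3CK cells that met neither the epithelial nor the mesenchymal rule held MUC1 at 12.8 and 189 CPM, MUC4 at 3.16 and 14.2 CPM and MUC13 at 30.1 and 63.1 CPM.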
